A study of Mus musculus with 2 samples.

Results

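Long intergenic noncoding RNA (lincRNA) genes are transcribed outside protein-coding genes into spliced or single-exon RNAs longer than 200 nucleotides that carry no annotated protein. The genes described here are those that the GENCODE M21 annotation types as lincRNA and that reached a mean of at least 10 TPM (a transcript's share of all transcripts, which takes its length into account) over both libraries of adult mouse testis. Gm42418 and the imprinted RNAs H19, Meg3, Mirg and Rian were left out by the rule, and of these Gm42418, Meg3 and Mirg otherwise met it. Of 2777 lincRNA genes and 43346 Ensembl genes measured, 202 met it. They were thus selected on their TPM, and their levels are given as a description.

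The study sequenced poly(A) RNA of testis from male C57BL/6J mice of 8 weeks in 2 libraries, labelled replicates 1 and 2, with no treatment and no other group. The labels speak of littermates, yet 1 donor identifier stands on both libraries, so separate animals are not established and differences between the libraries may be technical. RNA of more than 200 nucleotides was depleted of ribosomal RNA and read as stranded pairs of 76 bases. Expected counts, the estimated reads per gene, totalled 50374324 (replicate 1) and 52788929 (replicate 2), and the 202 genes had medians of 472 and 590 counts. Markers of germ cells summed to 71242 and 67892 TPM in replicates 1 and 2, with all 11 detected at 1 TPM or more. Sertoli markers summed to 1342 and 1714 TPM, Leydig markers to 4405 and 5477, and macrophage markers to 14.4 and 13. The libraries stood apart for 4 markers listed as peritubular, Acta2, Myh11, Cnn1 and Tagln. They summed to 259 and 118 TPM, all lower in replicate 2, and which tissue this RNA came from was not tested. The libraries also stood apart for markers of the epididymis, a separate organ: 7 of these summed to 808 and 0.52 TPM. Under 0.5 TPM were 2 of the 7 in replicate 1 and all 7 in replicate 2.

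As background, the testis is known for transcribing many more long noncoding RNAs than other organs, most of them in meiotic spermatocytes and in round spermatids, whose chromatin is widely open before histones are exchanged for protamines. Many of these genes carry RIKEN clone names, which were given when cDNA clones of an organ were sequenced, and the function of most is not known. A few lincRNAs have known roles: Malat1 lies in nuclear speckles, Neat1 builds nuclear paraspeckles, and others are hosts from whose introns or exons small nucleolar RNAs or microRNAs are cut. A TPM of whole testis cannot tell a few cells with much RNA from many cells with little.

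The 202 genes spanned 10.06 to 671 TPM on average, with a median of 21.1 in replicate 1 and 23.7 in replicate 2. Mean levels of at least 100 TPM were reached by 24 genes, 24 lay between 50 and 100, 63 between 20 and 50, and 91 between 10 and 20. Together they held 1.08% of all TPM in replicate 1 and 1.16% in replicate 2, and 0.677% (95% Wilson interval 0.675 to 0.679, counting error only) and 0.672% (0.669 to 0.674) of all counts. They carried 86.9% of the TPM of all lincRNA genes in either library, leaving out the excluded RNAs, while the median of the other lincRNA genes was 0.015 TPM. The distribution was steep: the 10 highest genes held 39.7% of the set's TPM in replicate 1 and 36.2% in replicate 2. For comparison, the median of all 21474 protein-coding genes measured was 3.58 TPM, and 35.0% of them reached 10 TPM.

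The gene of highest level was 1700008K24Rik (ENSMUSG00000101012), on the minus strand of chromosome 17 at 49112263 to 49113535 (mm10), with 641 TPM from 15463 counts in replicate 1 and 701 TPM from 17478 counts in replicate 2. It has 5 annotated transcripts, and the leading one, of 2 exons and 840 bases, held 56.7% and 55.9% of its TPM. Gm10076 followed with 602 and 564 TPM. Its 384-base transcript of a single exon is 99.5% identical to the ribosomal protein mRNA Rpl41, which had a mean of 1523 TPM, RefSeq calls it a pseudogene, and reads that match both genes are divided between them, so its level is uncertain. 1700101O22Rik, a 3-exon RNA of 339 bases from chromosome 12 (7372039 to 7380330, minus strand), had 492.4 and 601 TPM, and 597 kb separated it from the nearest protein-coding gene, the apolipoprotein gene Apob, which stood at 0.02 and 0.01 TPM. 4930571K23Rik, a single exon of 2153 bases on chromosome 7 (125368861 to 125371013, plus strand), had 559 and 522 TPM and the most counts of the set, with 44000 and 42817. 1700009J07Rik, on chromosome 10 (77893417 to 77896114, plus strand), had 519 and 470 TPM, with 99.0% and 98.1% of it in 1 transcript of 2 exons. In these 5 genes the log2 ratio of replicate 2 over replicate 1, on the scaled counts described below, ran from -0.16 (1700009J07Rik) to 0.22 (1700101O22Rik), and which library was higher differed from gene to gene.

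**Figure D1:**
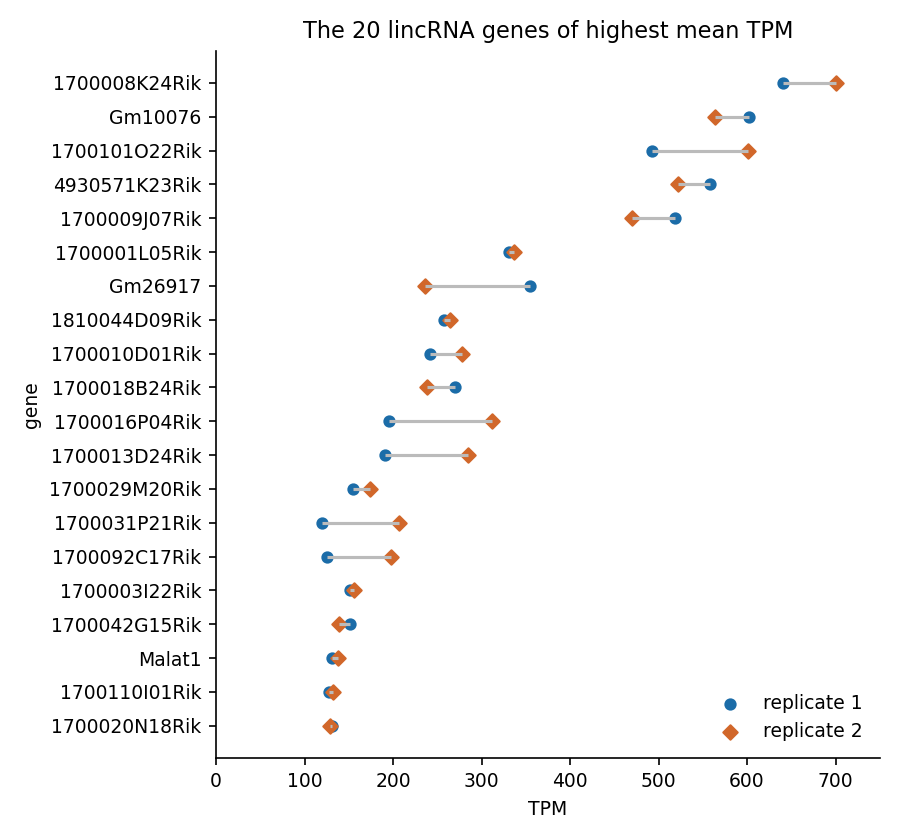
TPM (x axis, linear) of the 20 lincRNA genes of highest mean level (y axis); circles are replicate 1, diamonds replicate 2, and grey lines join the libraries of 1 gene. Levels fall from 641 and 701 TPM for 1700008K24Rik to 131 and 129 TPM for 1700020N18Rik, and the lines are longest for Gm26917, 1700016P04Rik and 1700101O22Rik.

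Below the first 5, 1700001L05Rik (chromosome 15) had 331 and 337 TPM, 1810044D09Rik (chromosome 6) had 257 and 265, and 1700018B24Rik (chromosome 3), a transcribed pseudogene in RefSeq, had 270 and 238. 1700010D01Rik, on the X chromosome, had 242 and 278 TPM and is 97.6% identical to the protein-coding gene Gm5941, which had a mean of 180 TPM. A run of short RNAs differed more between libraries: 1700016P04Rik had 196 TPM in replicate 1 and 312 in replicate 2, 1700013D24Rik had 191 and 285, 1700031P21Rik had 119 and 207, and 1700092C17Rik had 126 and 197. All 4 were higher in replicate 2, by log2 ratios of 0.54 to 0.74. 1700029M20Rik (155 and 174 TPM), 1700003I22Rik (152 and 156), 1700042G15Rik (152 and 139), 1700110I01Rik (127 and 133) and 1700020N18Rik (131 and 129) close the 20 highest together with Malat1 and Gm26917. Of these 20 genes, all but Gm10076, Gm26917 and Malat1 carry RIKEN clone names.

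RIKEN names of the testis clone series were carried by 121 of the 202 genes (59.9%). The share was 36.4% among 385 other lincRNA genes at 1 to 10 TPM, 8.19% among all 2575 other lincRNA genes and 2.30% among 7513 protein-coding genes of at least 10 TPM. These names record earlier cDNA cloning and are not independent of abundance in testis.

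At the threshold, the 3 genes just inside were 4930519D14Rik (8.95 and 11.3 TPM), 4930505K14Rik (9.73 and 10.6) and 4930515B02Rik (13.9 and 6.18). The 3 lincRNA genes just outside were 1700112J05Rik (9.81 and 10.1 TPM), Gm12665 (4.82 and 14.9) and Gm20484 (8.31 and 11.3, from 10 and 12 counts). Both sides overlapped, and 189 of the 202 genes reached 10 TPM in each library.

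RNAs known from other tissues were compared with the testis-named genes through lists of long RNAs. Only genes typed lincRNA could belong, and 202 of 2777 did. Of 15 measured long RNAs that are widely expressed or nuclear, 8 are typed lincRNA and 4 belonged to the set. Malat1 (chromosome 19, 5795690 to 5802672, minus strand), the speckle RNA, had 131 and 138 TPM, rank 18, and its leading transcript was the longest of the set with 6983 bases. Neat1, the paraspeckle scaffold, lies close by on the same strand (5824708 to 5845478) and had 88.0 and 75.1 TPM. 2900097C17Rik had 29.2 and 25.9 TPM. The fourth, Gm26917 (chromosome 17, 39843013 to 39846341, plus strand), had 354 TPM in replicate 1 and 236 in replicate 2. It ends 616 bases from the excluded Gm42418, which moved the other way, from 6702 to 14535 TPM. Whether the reads of Gm26917 stem from a lincRNA was not tested. The highest RNA of that list outside the set was Rmrp, typed as a ribozyme, with 1106 and 1597 TPM.

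Of 14 measured hosts of small nucleolar RNAs, 5 are typed lincRNA and 3 belonged to the set: Snhg20 (25.4 and 32.6 TPM), Snhg6 (10.8 and 21.8) and Epb41l4aos (12.5 and 11.4). Snhg3, the highest of that list outside the set, had 47.5 and 55.3 TPM and is typed as processed transcript, so gene type and not level kept it out. Of 8 long RNAs named in work on testis, 5 are typed lincRNA and 1700052I22Rik belonged, with 63.0 and 78.2 TPM, while the highest, Gm9999, is typed protein-coding and had 1198 and 1314 TPM. Of 5 measured RNAs of the X inactivation centre, 3 are typed lincRNA and none belonged: Xist had 0.09 and 0.27 TPM, while Tsx, typed protein-coding, had 17.1 and 24.2. Of 9 measured RNAs known from development, 4 are typed lincRNA and none belonged, and their highest, Bvht, a heart lincRNA, had 2.55 and 1.4 TPM.

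Small RNA genes lie on the same strand within 11 of the 202 genes (5.45%, against 3.64% of lincRNA genes at 1 to 10 TPM and 2.25% of all other lincRNA genes). Gm2044 (chromosome 7, minus strand), host of miR-202, a microRNA of the gonads, had 12.2 TPM in replicate 1 and 22.2 in replicate 2, from 348 and 658 counts. Mir670hg, host of miR-670 and of a copy of miR-129, had 30.8 and 32.9 TPM, and Mir9-3hg, host of a copy of the neuronal miR-9, had 20.1 and 28.1. Snhg20 also holds miR-6516. Mature microRNAs themselves are far shorter than the RNA that was sequenced and were not measured. The mature sequences of the products best known from gonad and brain, from RefSeq on the GRCm38.p6 assembly, show what these hosts carry, with the seed (bases 2 to 8), which pairs with targets, in capitals; no seed is shared among them.
mmu-miR-202-5p: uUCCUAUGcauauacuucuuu
mmu-miR-202-3p: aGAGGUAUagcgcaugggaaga
mmu-miR-129-5p: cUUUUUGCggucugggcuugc
mmu-miR-9-5p: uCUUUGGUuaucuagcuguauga
mmu-miR-9-3p: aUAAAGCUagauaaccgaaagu

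**Figure D2:**
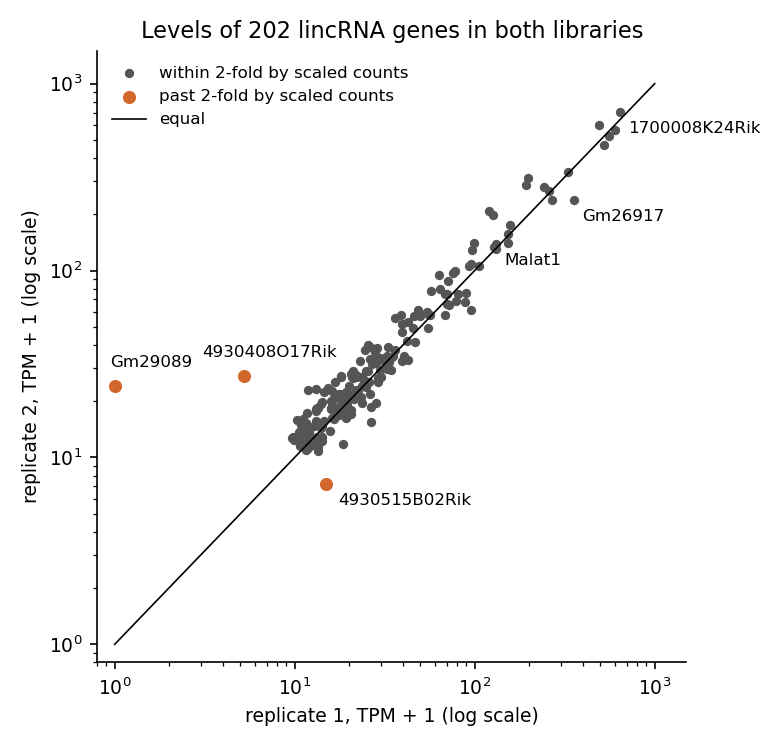
TPM + 1 of each of the 202 lincRNA genes in replicate 1 (x axis) and replicate 2 (y axis), both on log scales; the line marks equal levels, and the 3 orange points are past 2-fold by scaled counts. Most genes follow the line over the range up to 701 TPM, while Gm29089 is at 0 and 4930408O17Rik at 4.25 TPM in replicate 1.

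Each library was then set against the other gene by gene, on counts scaled by the trimmed mean of M values (TMM), with no replicate check and no test, since 1 library stood on each side. Past 2-fold were 3 of the 202 genes (1.49%), against 98 of all 8288 genes of at least 10 TPM (1.18%), 542 of 16213 genes of at least 1 TPM (3.34%), 59 of 7513 protein-coding genes of at least 10 TPM (0.785%) and 35 of 385 lincRNA genes at 1 to 10 TPM (9.09%). The share among the 202 genes was near the background. 4930408O17Rik, on chromosome 12, had 72 counts (4.25 TPM) in replicate 1 and 458 counts (26.2 TPM) in replicate 2, a log2 ratio of 2.58 (95% binomial interval 2.23 to 2.97, counting error only). 4930515B02Rik went the other way, from 219 to 100 counts, a log2 ratio of -1.20 (-1.56 to -0.86). The third, the Y-linked Gm29089, was at 0 counts in replicate 1 and at 386 in replicate 2, which is at least 122-fold higher at a floor of 3 counts in replicate 1. Its transcript is identical to that of Gm29277, also on Y, and both genes summed gave 441 and 900 counts (27.3 and 54.0 TPM), a log2 ratio of 0.95. In the authors' posterior mean TPM, Gm29089 stood at 9.95 and 22.1. How reads were divided between these identical copies thus sets the value of either gene, and their sum was within 2-fold.

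Past 1.5-fold were 20 genes (9.9%), against 3.8% of genes of at least 10 TPM, 9.34% of those of at least 1 TPM, 2.72% of protein-coding genes of at least 10 TPM and 23.4% of lincRNA genes at 1 to 10 TPM. Of these 20, 13 were higher in replicate 2 (6.44% of the set, against 1.71% of genes of at least 10 TPM) and 7 in replicate 1 (3.47%, against 2.09%). After those past 2-fold, the largest ratios towards replicate 2 were those of 4930435C17Rik (log2 ratio 0.88, from 255 to 494 counts), Snhg6 (0.85) and Gm2044 (0.84). Towards replicate 1 they were those of Gm12763 (-0.83, 1786 and 1057 counts), Gm29208 (-0.73, 331 and 210), Gm26917 (-0.69, 33652 and 21965) and 1700064M15Rik (-0.68, 1688 and 1113). The epididymis and peritubular markers were also higher in replicate 1, and their part in these differences was not tested.

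As a set the 202 genes leaned to replicate 2: 133 (65.8%) were higher there and 69 in replicate 1, with a median log2 ratio of 0.10. Protein-coding genes of at least 10 TPM had 47.7% higher in replicate 2 and a median of -0.01, and lincRNA genes at 1 to 10 TPM had 56.6% and 0.05. The genes were also counted by length of the leading transcript. Of 50 with a leading transcript under 500 bases, 35 were higher in replicate 2 (median 0.17), of 102 between 500 and 1000 bases 71 (median 0.08), and of 50 of at least 1000 bases 27 (median 0.05). Protein-coding genes of at least 10 TPM in the same length classes had 49.9%, 44.7% and 48.4% higher in replicate 2. The median absolute log2 ratio of single genes was 0.20 for the 202 genes, 0.14 for protein-coding genes of at least 10 TPM and 0.31 for lincRNA genes at 1 to 10 TPM. The groups also differed in depth, and its part in this spread was not tested. Median counts in replicates 1 and 2 were 472 and 590 for the 202 genes. They were 2647 and 2819 for the protein-coding genes and 86 and 92 for lincRNA genes at 1 to 10 TPM. Across the 202 genes, log2 TPM in both libraries correlated with Pearson's r of 0.94 and Spearman's rho of 0.93, given as a description over genes that share the same libraries.

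**Figure D3:**
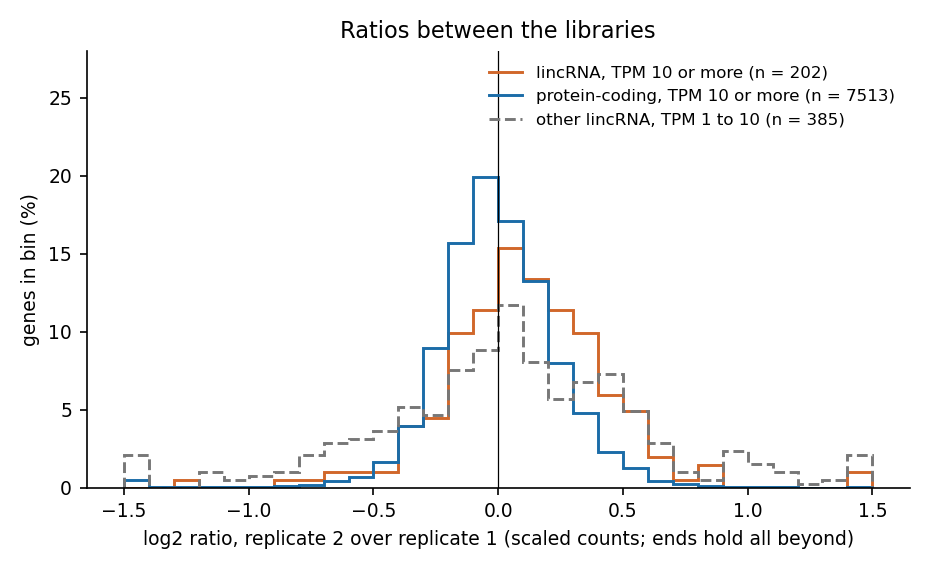
Share of genes (y axis, percent) in bins of the log2 ratio of replicate 2 over replicate 1 (x axis); the end bins hold all genes beyond them. The curve of the 202 lincRNA genes (orange) lies to the right of that of protein-coding genes of at least 10 TPM (blue), with medians of 0.10 and -0.01, and the dashed curve of 385 other lincRNA genes is the widest.

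The leading transcripts of the 202 genes were short, with a median of 660 bases (219 to 6983), against 807 for lincRNA genes at 1 to 10 TPM and 1888 for protein-coding genes of at least 10 TPM. They had a median of 2 exons, against 3 and 7. Of 197 with an exon count in the annotation, 86 (43.7%) had 2 exons and 13 (6.60%) had 1. The lincRNA genes at 1 to 10 TPM had like shares, with 42.2% and 7.29%, while 6.82% of the protein-coding genes had 2 exons and 3.42% had 1. Annotated transcripts numbered 2 or more in 93 genes (46.0%), against 31.7% of lincRNA genes at 1 to 10 TPM, 26.3% of all other lincRNA genes and 74.0% of the protein-coding genes. In these 93, the leading transcript held a median of 71.5% of the gene's TPM, against 66.5% in the protein-coding genes and 77.4% in lincRNA genes at 1 to 10 TPM. The leading transcript was the same in both libraries in 87 of 93 genes (93.5%), against 91.1% of the protein-coding genes and 84.4% of lincRNA genes at 1 to 10 TPM.

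In 25 of these 93 genes the leading transcript held at least 90% of TPM, and in 30 it held under 60%. The highest of the latter were 1700008K24Rik, 1700001L05Rik (46.9% and 48.0%), 1700029M20Rik (52.1% and 50.5%), Malat1 (54.6% and 57.3%), 1700110I01Rik (57.7% and 48.8%) and Neat1 (52.5% and 57.0%). The shares of these 6 genes differed by less than 10 percentage points between libraries. Neat1 is known for long and short forms that overlap. Where transcripts of a gene share sequence, the split between them is an estimate.

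A poly(A) signal, the hexamer that directs cleavage and addition of the tail, was looked for in the last 50 bases of the leading transcript where the annotation gives its sequence at the deposited length (185 genes). AATAAA was found in 94 (50.8%), only the variant ATTAAA in 23 (12.4%), and neither in 68 (36.8%). Among lincRNA genes at 1 to 10 TPM the shares were 39.1%, 14% and 46.9%, and among all other lincRNA genes 26.1%, 8.55% and 65.3%. An annotated end may fall short of the true one. Of the 8 highest genes, 1700008K24Rik, 1700009J07Rik, 1700001L05Rik and Gm26917 had neither. The last 50 bases of 5 of these 8 genes, from GENCODE M21, show both signals and an end with neither, the signal in capitals.
Gm10076: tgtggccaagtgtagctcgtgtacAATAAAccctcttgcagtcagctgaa
1700101O22Rik: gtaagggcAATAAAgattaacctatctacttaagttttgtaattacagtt
4930571K23Rik: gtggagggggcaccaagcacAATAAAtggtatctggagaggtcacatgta
1810044D09Rik: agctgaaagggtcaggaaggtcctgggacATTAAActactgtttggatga
1700008K24Rik: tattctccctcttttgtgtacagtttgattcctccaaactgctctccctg

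Open reading frames, counted from ATG to stop on the sense strand, had a median of 58 codons over the same 185 transcripts. At least 100 codons were reached by 33 (17.8%), close to the 17.3% of lincRNA genes at 1 to 10 TPM, and at least 200 codons by 7 (3.78%, against 0.279%). The longest was that of 4932416K20Rik, with 627 codons and 20.8 and 21.9 TPM. The other 6 with over 200 codons, named after their values were seen, were Gm26917 (353), 1700026J12Rik (266), 4933440M02Rik (260), 4930579C12Rik (255), AY702103 (235) and Gm1698 (228). An open reading frame in a sequence does not show that it is translated.

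RefSeq, which annotates genes independently of GENCODE, matched 171 of the 202 genes and typed 157 as long noncoding RNA, 4 as transcribed pseudogenes, 3 as noncoding pseudogenes and 1 as a pseudogene. It typed 6 as protein-coding (2.97%, against 0.779% of lincRNA genes at 1 to 10 TPM and 1.05% of all other lincRNA genes). These were 4930571K23Rik, the fourth highest gene of the set, Gm15104 on X (79.5 and 73.5 TPM), 1810058I24Rik (55.5 and 57.1), Tmem250-ps (23.9 and 22.9), 4930591A17Rik (18.5 and 17.2) and 1810020O05Rik (10.8 and 10.2). 1810058I24Rik has a longest frame of 68 codons and 4930571K23Rik one of 79 codons.

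Near-identical copies, which share reads, were searched with blastn in all annotated transcripts, at an identity of at least 95% over at least 80% of the leading transcript. They were found for 14 of the 202 genes. On X, BC061195 (95.4 and 128 TPM) and 1700003E24Rik (70.4 and 87.4) are 99.8% identical, and their sum had 166 and 215 TPM. On chromosome 2, Gm14152 (38.4 and 46.1 TPM) is 99.8% identical to 4930442J19Rik, which is also of the set but did not meet both limits by its own leading transcript and is not among the 14, with a sum of 58.3 and 71.6 TPM. The others of the 14 were Gm10076, 1700010D01Rik, Gm29277, Gm29089, 4933406F09Rik, Gm14145, Gm6455, 4930579C12Rik, Gm10339, Gm37350 and Gm29406. Levels of these genes depend on how reads were divided and are uncertain.

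The X and Y chromosomes are silenced in spermatocytes during meiosis, and genes in many copies there are known to be active in spermatids. The X chromosome held 7 of the 202 genes (3.47%, against 15 of 385 lincRNA genes at 1 to 10 TPM and 3.38% of all other lincRNA genes). The Y chromosome held 4 (1.98%, against 4 of 385, or 1.04%, at 1 to 10 TPM and 21.2% of all other lincRNA genes). On X, besides 1700010D01Rik, BC061195, 1700003E24Rik and Gm15104, these were Gm14773 (55.9 and 76.9 TPM), 4930567H17Rik (24.7 and 27.9) and 4930453H23Rik (12.5 and 17.5). By scaled counts all 7 X genes were higher in replicate 2, where 65.8% of the 202 genes were, with log2 ratios of 0.15 (4930567H17Rik) to 0.61 (4930453H23Rik). Gm15104 had 1180 and 1441 counts, while its TPM was lower in replicate 2. On Y, besides Gm29277 (27.3 and 30.9 TPM) and Gm29089, these were Gm29044 (21.3 and 26.1, from 70 and 84 counts) and Gm29406 (9.29 and 14.8, from 12.6 and 18 counts). At such counts the 2 last were too thinly covered to show a difference between libraries.

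The nearest protein-coding gene lay a median of 25.2 kb from the 202 genes, against 17.9 kb for lincRNA genes at 1 to 10 TPM and 41.0 kb for all other lincRNA genes. Within 5 kb of a protein-coding gene lay 59 of them (29.2%), 42 (20.8%) were more than 100 kb away, and 11 (5.45%) overlapped one, all but 1 on the opposite strand. The exception was Gm1698, which overlaps Gm45861 on the same strand. Among lincRNA genes at 1 to 10 TPM, 38.2% lay within 5 kb, 20.5% were more than 100 kb away and 11.9% overlapped a protein-coding gene. Among all other lincRNA genes these shares were 25.6%, 31.1% and 12.5%. For the 202 genes, 201 nearest genes had a value. Of these, 148 (73.6%) had at least 1 TPM and 68 (33.8%) at least 10, with a median of 3.68 TPM. Neighbours of lincRNA genes at 1 to 10 TPM had 71.3%, 34.5% and 4.45 TPM, and all protein-coding genes 64.2%, 35.0% and 3.58 TPM. The lincRNA gene stood above its neighbour in 149 of 201 pairs, which its selection at 10 TPM favours. Across the pairs, log2(TPM + 1) of lincRNA gene and neighbour had a Pearson's r of -0.12 and a Spearman's rho of -0.06, given as a description. Of the highest genes, 1700008K24Rik lies 14.7 kb from Lrfn2 (0.02 and 0.03 TPM) and 1700018B24Rik 1134 kb from Pcdh18 (0.11 and 0.08 TPM), while 1700001L05Rik lies 3.60 kb from Arfgap3 (63.3 and 58.2 TPM).

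Head to head, with starts on opposite strands within 1 kb and pointing apart, stood 21 of the 202 genes and a protein-coding gene (10.4%, against 16.4% of lincRNA genes at 1 to 10 TPM and 5.94% of all other lincRNA genes). Their starts were 14 to 288 bases apart, with a median of 111. The partners had a median of 30.2 TPM, 19 of 21 had at least 1 TPM, 16 at least 10, and 14 stood above their lincRNA. Partners of lincRNA genes at 1 to 10 TPM had a median of 13.3 TPM. Of these 63 partners, 62 had at least 1 TPM, 43 at least 10, and 56 stood above their lincRNA. For all other lincRNA genes the median was 10.3 TPM, and the counts were 133, 79 and 143 of 153. 4932412D23Rik, the highest lincRNA of such a pair, had 48.5 and 56.4 TPM while its partner 135 bases away, the transcription repressor gene Zbtb20, had 6.68 and 5.17. C030037D09Rik (35.0 and 54.4 TPM) starts 132 bases from Msi2, a gene for an RNA-binding protein, with 64.0 and 60.1 TPM. 4933433G15Rik (45.4 and 40.5) starts 179 bases from the kinase gene Mapk6, with 187 and 178 TPM. In these 3 pairs the order of lincRNA and partner was the same in both libraries but not the same from pair to pair.

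Gm2694 (38.3 and 31.7 TPM) stood above Cbln1 (3.37 and 3.19), which encodes a secreted synaptic protein. 1700104B16Rik (31.5 and 33.8) starts 14 bases from Gtf2e2, a subunit gene of a general transcription factor, with 44.2 and 51.5 TPM. 4933406C10Rik (24.9 and 24.3) stood below Sypl (148 and 178), and 1700086P04Rik (21.0 and 26.5) below the ubiquitin ligase gene Rnf19b (519 and 442), the highest partner. On Y, Gm29044 stood above Gm20824 (0.06 and 0.34 TPM). 4930408O17Rik, which apart from Gm29089 differed most between libraries, starts 254 bases from Clmn, which had 27.9 and 27.2 TPM. Across the 21 pairs, the levels of lincRNA gene and partner had a Spearman's rho of 0.02, given as a description.

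**Figure D4:**
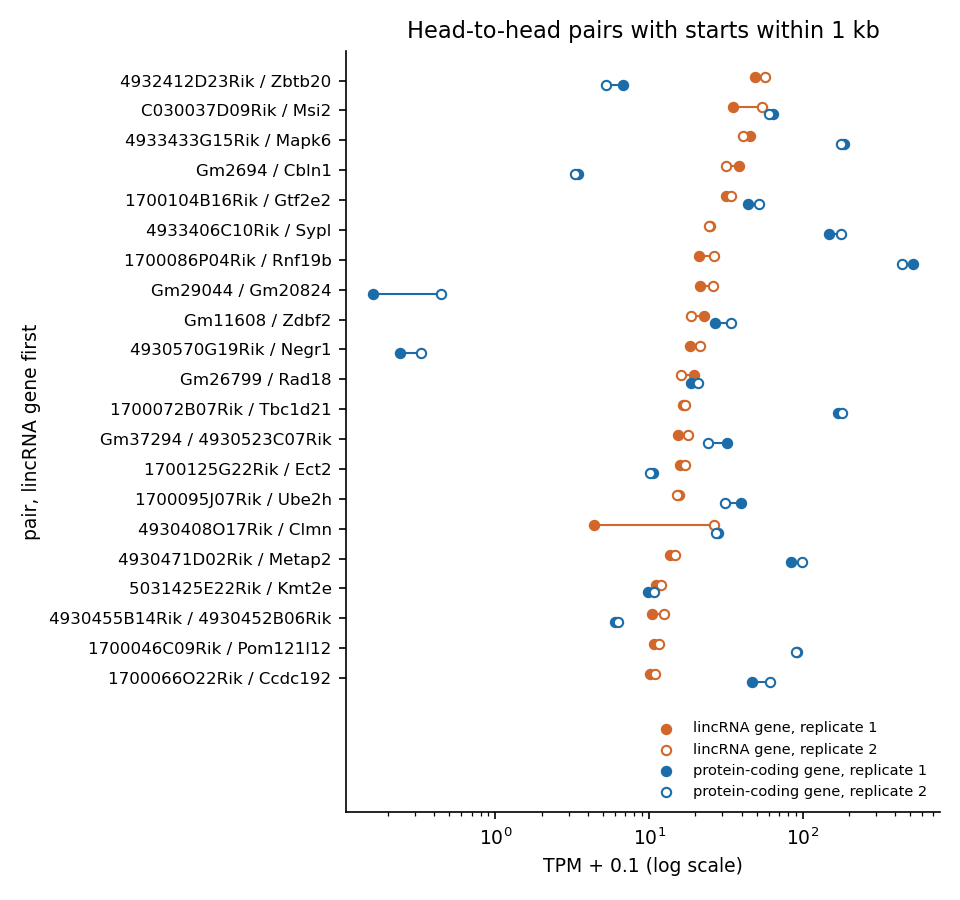
TPM + 0.1 (x axis, log scale) of the 21 head-to-head pairs (y axis, lincRNA gene first, ordered by its mean TPM); orange points are lincRNA genes, blue points their protein-coding partners, filled for replicate 1 and open for replicate 2. The lincRNA genes were selected at a mean of at least 10 TPM and the partners were not, which spread from under 1 TPM to 519 TPM; 4930408O17Rik is the lincRNA gene with the widest gap between libraries.

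Members of the set also lay beside each other. Heads of Gm10339 (13.5 TPM on average) and 4933406F09Rik (85.6) were 98 bases apart on chromosome 14, those of Gm28876 (11.4) and Gm10830 (37.0) 126 bases apart on chromosome 15, and those of 4930535E02Rik (18.4) and Gm35584 (13.4) 62 bases apart on chromosome 3. 4930535E02Rik and Gm35584 both leaned to replicate 2, with log2 ratios of 0.63 and 0.57, while Gm28876 and Gm10830 had 0.00 and -0.40. On the same strand, 4930535O05Rik (16.7), Gm19872 (11.3) and Gm2694 (35.0) followed each other on chromosome 8, with Gm19872 inside the body of Gm2694. 1700028D13Rik (31.2) and Gm26953 (16) lay 5.46 kb apart on chromosome 5, while 1700037C06Rik (67.8) overlapped Gm13001 (13.7) on chromosome 4 and 4930558N11Rik (19.9) lay within 4930435C17Rik (30.2) on chromosome 7. Where genes of 1 strand overlap, reads from the shared part cannot be told apart.

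Promoters were read from RefSeq (GRCm38.p6, the build of the files), as 250 bases before to 50 bases after the start. An entry existed for 143 of the 202 genes, and for 122 its start lay within 100 bases of the start of the gene's leading transcript. CpG content, which marks promoters of broadly used genes, was low: the ratio of observed to expected CpG had a median of 0.25, against 0.78 for 4513 promoters of protein-coding genes of at least 10 TPM, 0.39 for 147 of lincRNA genes at 1 to 10 TPM and 0.38 for all 32851 promoters. A ratio of at least 0.6 with at least 50% GC was met by 20 of 122 (16.4%), against 69.1%, 34.0% and 33.5%. Of the head-to-head genes, 9 of 11 met it, with a median ratio of 0.89, and of the other 111 genes 11 did (9.91%), with a median of 0.20. A head-to-head promoter window also takes in the start of its partner.

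Short motifs of factors known in germ cells were searched on both strands of these windows. TAACTG, a site of MYB-type factors such as the spermatocyte factor A-MYB, was in 33 of 122 (27.0%), against 16.3% of promoters of lincRNA genes at 1 to 10 TPM, 7.80% of those of protein-coding genes of at least 10 TPM and 10.1% of all promoters. Counted without the CpG-rich windows, it was in 31 of 102 (30.4%), against 11.9% of 1394 promoters of protein-coding genes of at least 10 TPM and 12.9% of all 21856 such promoters. The lincRNA genes at 1 to 10 TPM were not counted in this way. Of all their 147 promoters, 24 held TAACTG and 50 were CpG-rich. None of the 11 head-to-head promoters of the set held TAACTG. TGACGTCA, the full cAMP response element bound by CREM in spermatids, was in 6 (4.92%), 3 of them among the 11 head-to-head promoters, against 4.08% of promoters of lincRNA genes at 1 to 10 TPM, 3.83% of those of protein-coding genes of at least 10 TPM and 1.79% of all promoters. GTTGCC, a site of RFX factors, which act on ciliary genes, was in 22 (18%), against 18.4%, 15.7% and 12.5% in the same 3 groups. CCAAT was in 49 (40.2%), against 34.0%, 40.6% and 37.4%, and TATAAA in 15 (12.3%), against 10.2%, 6.87% and 13.6%. No motif contains another, a match shows only that the letters are there, and no difference was tested.

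The promoters of 3 of the highest genes and of 2 of the highest head-to-head genes show the contrast between CpG-poor and CpG-rich starts, with all matches to the 5 motifs or their reverse complements in capitals. 1700008K24Rik (chr17:49113484-49113783, minus strand, CpG ratio 0.20) holds TAACTG near its start, read on the other strand, and CCAAT. 4930571K23Rik (chr7:125368611-125368910, plus strand, 0.20) holds TAACTG in the 50 bases after its start. 1700101O22Rik (chr12:7380281-7380580, minus strand, 0.17) holds none of the 5. 4932412D23Rik, head to head with Zbtb20 (chr16:42875713-42876012, minus strand, 1.12), holds CCAAT and GTTGCC, and C030037D09Rik, head to head with Msi2 (chr11:88718393-88718692, plus strand, 0.99), holds TGACGTCA and CCAAT. Not shown are 1700009J07Rik, which holds only CCAAT, and the head-to-head 4933433G15Rik and 4933406C10Rik, which hold none of the 5.
1700008K24Rik: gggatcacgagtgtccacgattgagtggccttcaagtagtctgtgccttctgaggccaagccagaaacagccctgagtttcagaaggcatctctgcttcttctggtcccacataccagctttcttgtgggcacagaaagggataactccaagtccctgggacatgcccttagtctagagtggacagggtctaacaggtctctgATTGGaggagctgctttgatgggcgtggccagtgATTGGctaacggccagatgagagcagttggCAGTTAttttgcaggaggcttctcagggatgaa
4930571K23Rik: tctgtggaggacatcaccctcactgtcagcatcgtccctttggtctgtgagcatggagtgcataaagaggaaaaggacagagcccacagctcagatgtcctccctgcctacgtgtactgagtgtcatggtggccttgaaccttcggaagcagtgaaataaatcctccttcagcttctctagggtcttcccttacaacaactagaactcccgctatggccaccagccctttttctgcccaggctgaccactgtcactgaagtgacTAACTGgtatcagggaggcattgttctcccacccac
1700101O22Rik: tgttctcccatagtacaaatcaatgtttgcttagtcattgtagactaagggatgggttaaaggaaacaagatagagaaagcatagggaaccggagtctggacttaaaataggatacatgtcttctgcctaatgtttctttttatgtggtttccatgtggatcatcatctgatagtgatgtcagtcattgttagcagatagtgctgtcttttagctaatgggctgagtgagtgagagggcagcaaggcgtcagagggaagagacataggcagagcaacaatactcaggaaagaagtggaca
4932412D23Rik: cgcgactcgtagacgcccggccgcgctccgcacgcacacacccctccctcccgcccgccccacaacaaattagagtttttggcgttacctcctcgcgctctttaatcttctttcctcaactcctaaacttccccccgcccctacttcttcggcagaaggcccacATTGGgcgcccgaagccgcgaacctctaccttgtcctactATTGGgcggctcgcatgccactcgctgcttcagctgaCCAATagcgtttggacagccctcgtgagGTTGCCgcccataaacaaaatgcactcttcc
C030037D09Rik: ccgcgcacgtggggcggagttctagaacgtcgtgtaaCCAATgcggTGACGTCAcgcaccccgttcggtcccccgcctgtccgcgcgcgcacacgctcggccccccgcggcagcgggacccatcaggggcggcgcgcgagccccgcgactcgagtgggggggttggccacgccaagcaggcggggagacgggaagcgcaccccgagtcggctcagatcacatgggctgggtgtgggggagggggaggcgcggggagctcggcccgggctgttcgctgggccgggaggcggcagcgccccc

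**Figure D5:**
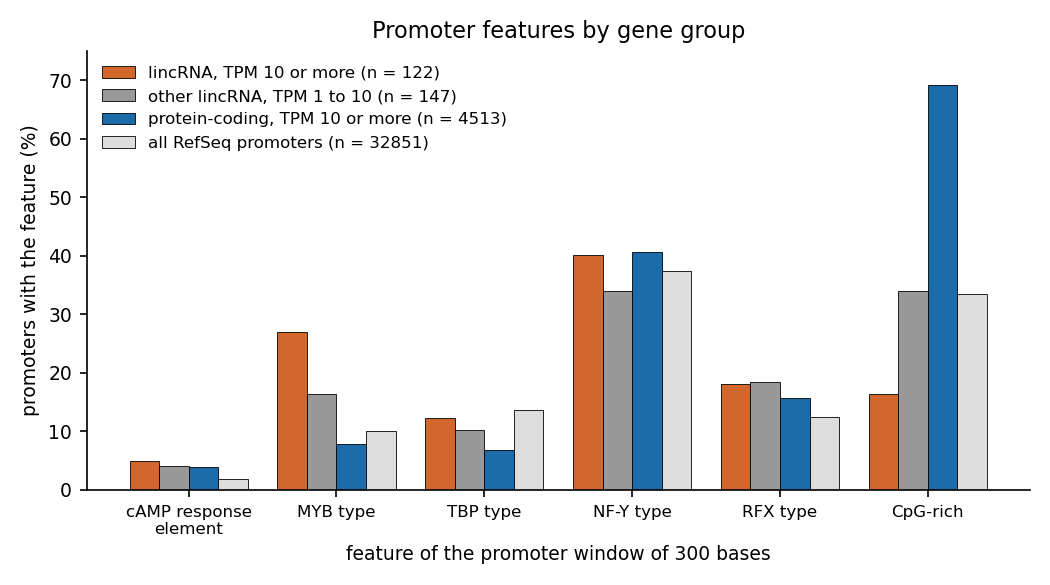
Share of promoters (y axis, percent, from 0) that hold each motif, named by the factor or element it is known for, or that are CpG-rich (ratio of at least 0.6 and at least 50% GC), in 4 groups of genes (bars). The MYB-type motif is in 27.0% of promoters of the lincRNA genes described here in 16.3% of those of lincRNA genes at 1 to 10 TPM and in 10.1% of all promoters, while CpG-rich promoters are 16.4%, 34.0% and 33.5%.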

How the data were processed

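Poly(A) RNA of testis was measured in 2 libraries of 1 group. Per the file headers, the authors deposited expected counts (estimated reads per gene or transcript, not normalised), TPM, posterior means of both, and each transcript's percent of its gene's TPM, computed on mm10 with annotation M4 per the deposited readme. Aligner and quantifier were not given in the sources used here. GENCODE M21, on that assembly, gave symbols, types, positions, exons and transcript sequences by identifier without version; other columns, and the deposited splice junctions and contigs on mm9, were not used.

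The genes, lists, motifs and naming rule were chosen with earlier results of these data known. The rule names the 20 highest genes, 3 on each side of the threshold, the 5 largest ratios each way, the 8 highest head-to-head genes, the 6 highest whose leading transcript holds under 60%, those with a RefSeq protein, on X or Y or in pairs under 10 kb apart, and list members with the highest non-member. Log2 ratios used expected counts rounded to whole numbers, scaled with TMM in edgeR 4.0.16 (R 4.3.3) over 19534 genes of 10 or more counts in each library, plus 0.5, and were checked on simulated data. With 1 group, no test between groups was possible. The leading transcript has the highest mean percent. Distances run from gene body to gene body, with overlap at 0. Copies were searched with blastn 2.17.0. Wilson and binomial intervals and the floor of 3 counts cover counting error only. Of the 202 genes, 201 had at least 10 counts in both libraries and 6 had under 100 in a library.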

Additional observations from a re-analysis of the deposited data

How the results depend on the processing

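No paired analysis was possible because the series has 1 group. The number of genes was 202 and became 308 at a mean of at least 5 TPM and 111 at 20 TPM; with the other settings it stayed within 1.5 times, and leaving out either library gave 196 to 215. The share of all TPM, 1.12% on average, was 0.674% as a share of expected counts and 0.956% without Gm26917 and the genes with a near-identical copy, an alternative chosen after seeing the data. The median share of the leading transcript was 71.5%, and 70.8% to 73.4% when either library was left out. The median distance to the nearest protein-coding gene was 25.2 kb from body to body, 45.4 kb from start to start and 36.6 kb to genes of at least 1 TPM. The 3 genes past 2-fold became 20 past 1.5-fold, and 2 without genes that have a near-identical copy; size factors of DESeq2 1.42.0 gave 3 and ratios of TPM 4, the fourth being Snhg6. The median log2 ratio kept its sign under each setting tried. What depth limits is the ratio of thinly covered genes, such as Gm29406 and Gm29044. With 2 libraries that may share a donor, no statement extends to other animals.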

Other observations

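Of the imprinted RNAs that the rule left out, Meg3 and Mirg had levels that would have placed them in the set. Meg3 had 71.5 TPM in replicate 1 and 61.2 in replicate 2, and Mirg had 59.9 and 45.3. Pldi, a long RNA known from mouse testis and chosen here after its value was seen, had 33.1 and 28.3 TPM from 870 and 769 counts, rank 75, and its promoter holds TAACTG and CCAAT.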
